A study of Arabidopsis thaliana with 8 samples.

Results

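The nuclear genes of the photosynthetic light reactions were followed in RNA sequencing libraries of Arabidopsis thaliana seedlings mutated in subunits of the ISWI chromatin remodelling complex. The list holds 50 genes of the 23935 that the 3 deposited tables name, chosen by their known protein, with earlier results of these data in view. It comprises 6 genes for the antenna of photosystem I, 14 for the antenna of photosystem II, 12 for photosystem I, 10 for photosystem II, and 8 for electron transport and the ATP synthase. Of these, 49 are in all 3 tables, and all 49 passed the filter on low values in each table. LHCB1.5 (AT2G34420) was not analysed here.

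Col-0 seedlings were grown on MS medium for 10 days in a daily cycle of 16 h of light (23 °C) and 8 h of darkness (21 °C), and whole seedlings gave 4 groups of 2 libraries. The groups are wild type (WT), arid5(-/-), the double mutant chr11(-/-)chr17(-/-), here chr11/17, and the double mutant rlt1(-/-)rlt2(-/-), here rlt1/2. The labels used here name no alleles, and they do not say whether the 2 libraries of a group are separate cultures. The p-values rest on differences between the 2 libraries of a group, pooled in part across genes. Part or all of these differences may be technical. Each mutant was compared with the WT libraries of its own table, and the same WT reads stand in all 3 tables.

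Light-harvesting chlorophyll proteins surround both photosystems, absorb light and pass its energy to the reaction centres. Photosystem II oxidises water, electrons pass through the cytochrome complex and plastocyanin to photosystem I and ferredoxin, and the proton gradient they build drives the ATP synthase. The complexes are mosaics of proteins encoded in the plastid and in the nucleus; the antenna is encoded in the nucleus, and its mRNAs are among the most abundant of green tissue.

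Depth was 23135817 to 29965298 recovered reads per library. ARID5 (AT3G43240) read 831 and 845 in WT and 213 and 206 in arid5, and RLT2 (AT5G44180) read 2292 and 2161 in WT and 88 and 61 in the libraries labelled rlt1/2. CHR17 (AT5G18620) read 1395 and 1316 in WT and 771 and 833 in the libraries labelled chr11/17. CHR11 (AT3G06400) went against the label, with 3077 and 2915 in WT and 7226 and 7319 in the same libraries (log2 change 1.28 ± 0.07, limma adjusted p = 8.03e-06). RLT1 (AT1G28420) was not reduced in the libraries labelled rlt1/2, at 2318 and 1908 against 1955 and 1970 (log2 change 0.10 ± 0.09, adjusted p = 0.385). The names chr11/17 and rlt1/2 stand from here on for the libraries labelled so.

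Transcripts of all 49 measured genes were lower than WT in each of the 3 mutants, to about 52.0% of the WT level in arid5, 18.5% in the libraries labelled chr11/17 and 47.9% in those labelled rlt1/2 (medians over genes). Among the scalings tried, quantile normalization alone turned this direction, for 6 genes in arid5 and 4 in rlt1/2. Under it 39 of 49 genes stayed below WT in arid5 and 41 in rlt1/2, and 33 and 32 kept their calls. That scaling sets a gene that keeps its rank to no change, so it cannot decide the direction for the most abundant members. In arid5, 49 of 49 were called lower by limma at an adjusted p under 0.05 and 0 higher, where 24.6% of the 20550 genes tested were called lower and 23.3% higher. In the libraries labelled chr11/17, 49 of 49 were called lower and 0 higher, where 36% of 20878 genes were called lower and 35.9% higher. In those labelled rlt1/2, 49 of 49 were called lower and 0 higher, where 24% of 20741 genes were called lower and 23.8% higher.

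The median log2 change over the members, mutant minus WT on the log2(normalised count + 10) scale, was -0.94 in arid5 (range -2.14 to -0.39). It was -2.46 in chr11/17 (-4.88 to -1.32) and -1.07 in rlt1/2 (-1.94 to -0.33). Over all genes tested the medians were 0.003, -0.007 and 0.009. Both mutant libraries lay below both WT libraries for 49 of 49 members in every table, a pattern that 37.3%, 43.9% and 37.3% of all genes tested showed in arid5, chr11/17 and rlt1/2. With 2 libraries against 2 the smallest two-sided p of an exact permutation test of a single gene is 0.333, so the calls rest on a spread estimated across genes.

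A log2 change of -1 or below was reached by 11 of 49 members in arid5, where 2.98% of all genes were called and reached it, by 49 of 49 in chr11/17 (16.6% of all genes), and by 37 of 49 in rlt1/2 (3.81%). The medians of arid5 and rlt1/2, -0.94 and -1.07, lay on either side of that limit, and edgeR called 0 of 49 members between these mutants (0 at an unadjusted p under 0.05, and 0 by DESeq2).

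**Figure D1:**
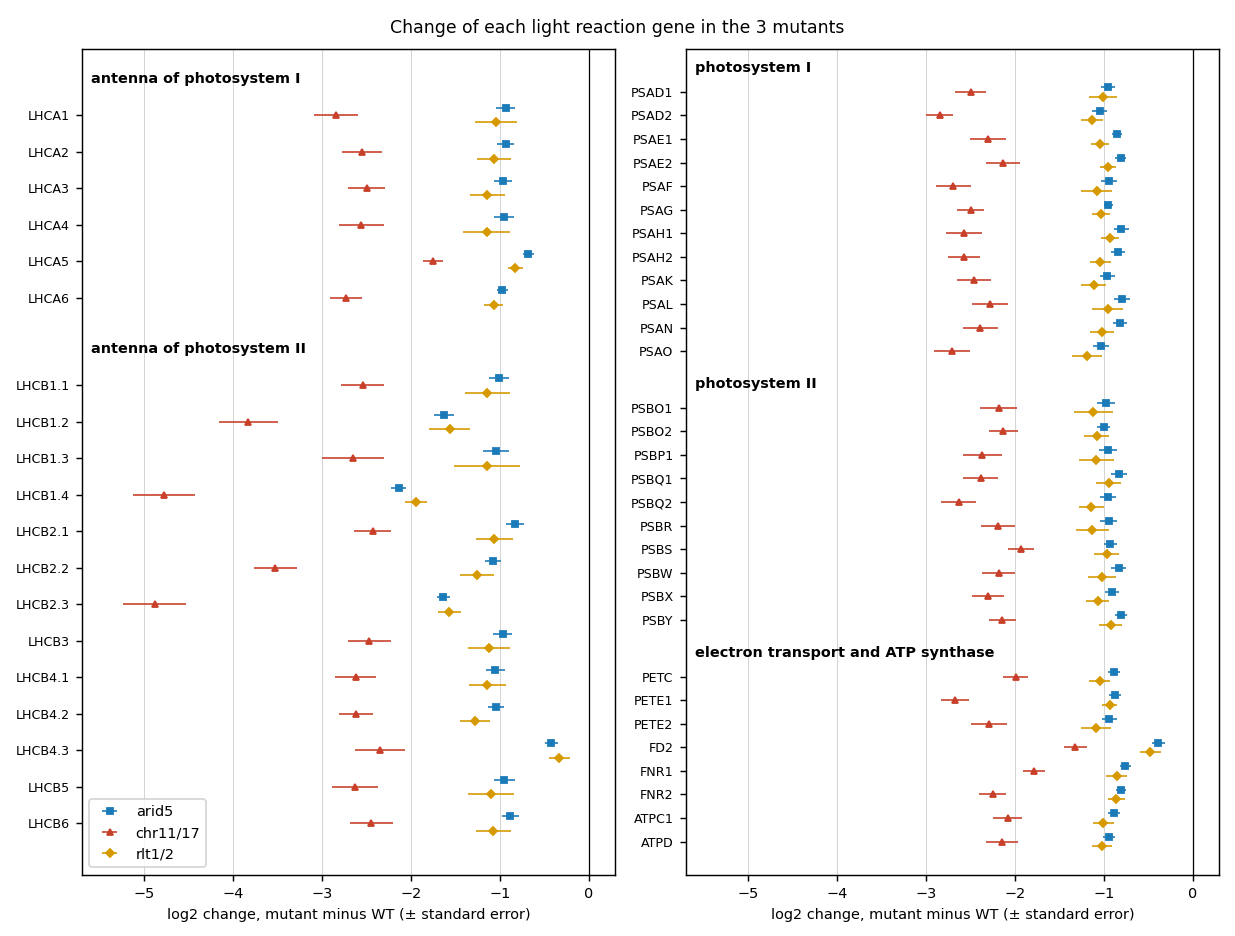
Log2 change of each of the 49 measured genes against WT (x axis, mutant minus WT on the log2(normalised count + 10) scale), by functional group, for arid5 (squares), chr11/17 (triangles) and rlt1/2 (diamonds), with bars for the standard error and n = 2 libraries per group. Every point lies left of 0 as deposited (quantile normalization turned 6 genes in arid5 and 4 in rlt1/2), chr11/17 lies furthest left for every gene, and LHCB1.2, LHCB1.4 and LHCB2.3 stand left of the rest of their group in each mutant.

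The values depend on the scaling. When libraries were scaled to equal totals of recovered reads, the median of all genes moved up by 0.25 in arid5, 0.15 in chr11/17 and 0.26 in rlt1/2, and the split of calls over all genes became 2677 lower and 9761 higher in arid5, against 5062 and 4784 as deposited. In rlt1/2 it became 2691 lower and 9696 higher, against 4982 and 4944. With totals over the genes that are not members, the median of all genes still moved by 0.16 in arid5 and rlt1/2 and by -0.03 in chr11/17. Relative to the median of all genes, the members' median was -0.95, -2.45 and -1.08 as deposited. A common scaling factor leaves this quantity nearly the same by construction, and quantile normalization gave -0.34, -1.97 and -0.43. FD2 and LHCB4.3 lost their calls in arid5 and rlt1/2 under equal totals. Quantile normalization gives each rank a single value, so a gene that keeps its rank is set to no change. Members held 28 of the 50 highest ranks in each WT library. LHCA4, LHCB1.1, LHCB1.3 and LHCB5 came out at exactly 0 in arid5. Under this normalization 33, 48 and 32 of 49 members were called lower. LHCA1, LHCB3, PSBO1 and FD2 turned to small positive values in arid5 and rlt1/2, as did LHCB6 in arid5. LHCB2.1 was called higher in arid5 (0.24, limma adjusted p = 0.017).

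The DNA in front of 6 genes is shown first, because they span the range of change and include copies of the same protein that changed by different amounts. LHCB1.4, LHCB1.2 and LHCB2.3 had the largest falls in every mutant, LHCB1.3 and LHCB2.1 are copies of the same antenna proteins with smaller falls, and FD2 had the smallest fall in arid5 and chr11/17. The 250 bases before each gene's start were read from the RefSeq TAIR10.1 genome, on the gene's strand and 5′ to 3′. Capitals mark matches on either strand to any of 5 light- and clock-related or core motifs. These are the G-box, spelled CACGTG, and the I-box, spelled GATAAG. The further motifs searched were an element spelled CCAATC and the evening element, spelled AAAATATCT. The last was the core promoter motif TATAAA. No motif overlaps another in the windows shown. The windows are chr2:14524357-14524606 (plus strand) for LHCB1.4, chr1:10473503-10473752 (minus) for LHCB1.2, chr3:10255656-10255905 (plus) for LHCB2.3, chr1:10477635-10477884 (plus) for LHCB1.3, chr2:1824481-1824730 (minus) for LHCB2.1 and chr1:22444057-22444306 (plus) for FD2.
LHCB1.4: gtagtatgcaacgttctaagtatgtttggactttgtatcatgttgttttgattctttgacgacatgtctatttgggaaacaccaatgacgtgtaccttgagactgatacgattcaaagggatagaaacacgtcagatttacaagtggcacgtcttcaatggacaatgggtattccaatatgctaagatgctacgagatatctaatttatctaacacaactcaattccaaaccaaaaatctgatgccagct
LHCB1.2: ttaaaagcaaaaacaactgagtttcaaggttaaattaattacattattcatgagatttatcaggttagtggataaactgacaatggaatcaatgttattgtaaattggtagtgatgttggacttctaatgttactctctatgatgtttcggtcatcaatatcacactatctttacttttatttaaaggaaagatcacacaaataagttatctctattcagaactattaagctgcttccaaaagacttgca
LHCB2.3: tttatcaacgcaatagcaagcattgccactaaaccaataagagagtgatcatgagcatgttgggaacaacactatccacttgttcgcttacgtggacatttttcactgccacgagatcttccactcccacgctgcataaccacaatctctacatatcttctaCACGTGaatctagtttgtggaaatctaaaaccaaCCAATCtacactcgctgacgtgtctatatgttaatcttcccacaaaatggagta
LHCB1.3: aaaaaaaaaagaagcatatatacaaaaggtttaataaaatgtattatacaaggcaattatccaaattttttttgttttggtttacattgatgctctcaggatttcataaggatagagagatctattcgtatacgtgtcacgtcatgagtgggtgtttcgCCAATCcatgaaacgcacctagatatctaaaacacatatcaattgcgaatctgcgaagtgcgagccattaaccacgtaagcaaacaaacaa
LHCB2.1: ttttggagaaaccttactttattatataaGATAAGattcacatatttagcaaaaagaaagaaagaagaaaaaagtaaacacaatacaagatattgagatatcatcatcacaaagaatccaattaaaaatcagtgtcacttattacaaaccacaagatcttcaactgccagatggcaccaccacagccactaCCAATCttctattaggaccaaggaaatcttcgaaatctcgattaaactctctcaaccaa
FD2: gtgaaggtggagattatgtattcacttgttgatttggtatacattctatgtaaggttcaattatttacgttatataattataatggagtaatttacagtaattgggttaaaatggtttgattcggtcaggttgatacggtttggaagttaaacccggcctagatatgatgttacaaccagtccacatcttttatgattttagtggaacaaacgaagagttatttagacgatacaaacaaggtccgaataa

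LHCB1.4, LHCB1.2 and FD2 hold none of the 5 motifs in these letters, LHCB1.3 holds CCAATC, LHCB2.1 holds GATAAG and CCAATC, and LHCB2.3 holds CACGTG and CCAATC. Among the 250-base windows of all 50 listed genes, 9 (18%) hold CACGTG, against 6.49% of 27443 protein-coding genes. GATAAG is in 12 (24%), against 12.3%, and CCAATC in 14 (28%), against 10.2%. AAAATATCT is in 2 (4%), against 2.36%, and TATAAA in 23 (46%), against 47.3%. These shares describe letters in a window. The listed genes lie on all 5 chromosomes, with 21, 8, 7, 9 and 5 on chromosomes 1 to 5, and LHCB1.1, LHCB1.2 and LHCB1.3 are neighbours on chromosome 1.

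The antenna of photosystem II contained the members with the largest falls in every mutant. LHCB1, LHCB2 and LHCB3 proteins form the trimeric antenna, and LHCB4, LHCB5 and LHCB6 the monomeric proteins between the trimers and the reaction centre. All 13 measured genes were lower in each table, with a median log2 change of -1.04 in arid5, -2.62 in chr11/17 and -1.14 in rlt1/2. This order of groups depends on the scaling. Under quantile normalization the median was -0.092 in arid5 and -0.091 in rlt1/2, smaller falls than in photosystem I, photosystem II or electron transport.

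LHCB1.4 (AT2G34430; gene at chr2:14524607-14525918 in TAIR10.1, 1 coding exon) read 56680 and 54209 normalised counts in WT and 11513 and 13742 in arid5. In the chr11/17 table it read 56601 and 54131 in WT and 1294 and 3095 in the mutant. In the rlt1/2 table it read 62761 and 59841 in WT and 16532 and 15383 in the mutant. Mutant and WT libraries were far apart in each table, and the second chr11/17 library stood above the first. The gene fell by 2.14 ± 0.08 on the log2 scale in arid5 (adjusted p = 2.78e-08), by 4.78 ± 0.35 in chr11/17 (adjusted p = 2.42e-05) and by 1.94 ± 0.12 in rlt1/2 (adjusted p = 2.23e-07). Leaving out either chr11/17 library moved its change to -5.41 or -4.16.

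LHCB2.3 (AT3G27690) read 46561 and 44475 in WT and 13820 and 15513 in arid5. The chr11/17 table gave 46497 and 44411 in WT and 981 and 2382 in the mutant, and that of rlt1/2 gave 51556 and 49096 in WT and 18534 and 15454 in the mutant. No mutant library reached a WT library. The log2 change was -1.64 ± 0.07 in arid5 (adjusted p = 5.78e-08), -4.88 ± 0.35 in chr11/17 (adjusted p = 2.32e-05), the largest change of any member, and -1.57 ± 0.13 in rlt1/2 (adjusted p = 1.69e-06). Without either chr11/17 library it was -5.52 or -4.25.

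LHCB1.2 (AT1G29910) read 194338 and 190570 in WT and 56453 and 68748 in arid5. Its chr11/17 libraries read 9240 and 19731, against 194067 and 190297 in WT. Its rlt1/2 libraries read 78672 and 65637, against 215187 and 210368 in WT. The groups did not overlap, and the gene kept 32.5%, 7.54% and 33.9% of the WT level in the 3 mutants. The log2 changes were -1.63 ± 0.11, -3.83 ± 0.33 and -1.57 ± 0.23, with adjusted p = 7.1e-07, 5.4e-05 and 0.000125.

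LHCB1.3 (AT1G29930), the most abundant member per length in WT, read 465739 and 447267 in WT and 209315 and 234460 in arid5. In chr11/17 it read 56766 and 92663, against 465091 and 446625, and in rlt1/2 252057 and 206903, against 515706 and 493732. Its log2 changes were -1.04 ± 0.14, -2.65 ± 0.35 and -1.14 ± 0.37, with adjusted p = 0.000109, 0.000433 and 0.024. In rlt1/2 this call was lost when no gene was filtered (adjusted p = 0.0606), without WT replicate 1 (0.465) and without WT replicate 2 (0.438), in a range of 9.79e-28 to 1 over 14 alternatives. LHCB1.1 (AT1G29920) read 207942 and 200753 in WT and 96833 and 106089 in arid5, 29083 and 42032 in chr11/17 against 207653 and 200465, and 112888 and 92721 in rlt1/2 against 230251 and 221609. It changed by -1.01, -2.54 and -1.14, and in rlt1/2 its call too was lost without WT replicate 1 (adjusted p = 0.189) or 2 (0.164).

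LHCB2.2 (AT2G05070) read 6854 and 11642 in chr11/17 against 105358 and 101057 in WT, a log2 change of -3.53 ± 0.24 (adjusted p = 1.83e-05). In arid5 it read 46819 and 51244 against 105504 and 101202 (-1.08 ± 0.09, adjusted p = 2.23e-06), and in rlt1/2 53885 and 42343 against 116823 and 111716 (-1.26 ± 0.19, adjusted p = 0.000149). Its copy LHCB2.1 (AT2G05100) read 69168 and 75334 in arid5 against 135228 and 121899, 20148 and 28044 in chr11/17 against 135040 and 121724, and 76039 and 60832 in rlt1/2 against 149735 and 134563. Those values were 56.2%, 18.8% and 48.1% of WT, and the changes -0.83 ± 0.10, -2.43 ± 0.21 and -1.06 ± 0.21. Under quantile normalization LHCB2.1 was called higher in arid5 instead (0.24, limma adjusted p = 0.017).

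LHCB4.3 (AT2G40100), a gene for a variant of the LHCB4 protein, was the least abundant member per length and had the smallest fall of the group in all 3 mutants. It read 1068 and 1092 in WT and 772 and 838 in arid5 (-0.42 ± 0.07, adjusted p = 0.000442). In rlt1/2 it read 1104 and 813, against 1182 and 1205 in WT (-0.33 ± 0.12, adjusted p = 0.0343), with the first mutant library close under WT. The rlt1/2 call was lost in 6 of 14 alternatives, which gave adjusted p from 9.85e-06 to 0.669. Among them were leaving out the second rlt1/2 library (-0.11, adjusted p = 0.29), DESeq2 (0.0765), edgeR on 8 libraries (0.226) and quantile normalization (0.117). In arid5 it was lost in 2 of 14, under equal totals (0.0653) and by edgeR on 8 libraries (0.132). In chr11/17 it read 141 and 291 against 1066 and 1090, a log2 change of -2.35 ± 0.28 (adjusted p = 0.00026). LHCB4.1 (AT5G01530) read 58235 and 68167 in arid5 against 134173 and 126909, 17106 and 26204 in chr11/17 against 133986 and 126727, and 72761 and 58720 in rlt1/2 against 148567 and 140094. LHCB4.2 (AT3G08940) read 42913 and 48238 in arid5 against 96330 and 91334, 12827 and 18126 in chr11/17 against 96196 and 91203, and 46436 and 39201 in rlt1/2 against 106664 and 100822. For both, every mutant library lay below WT. LHCB4.1 and LHCB4.2 changed by -1.05 and -1.04 in arid5, by -2.62 each in chr11/17 and by -1.14 and -1.28 in rlt1/2. LHCB3, LHCB5 and LHCB6 lay between -0.97 and -0.88 in arid5, between -2.63 and -2.45 in chr11/17, and between -1.12 and -1.07 in rlt1/2.

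**Figure D2:**
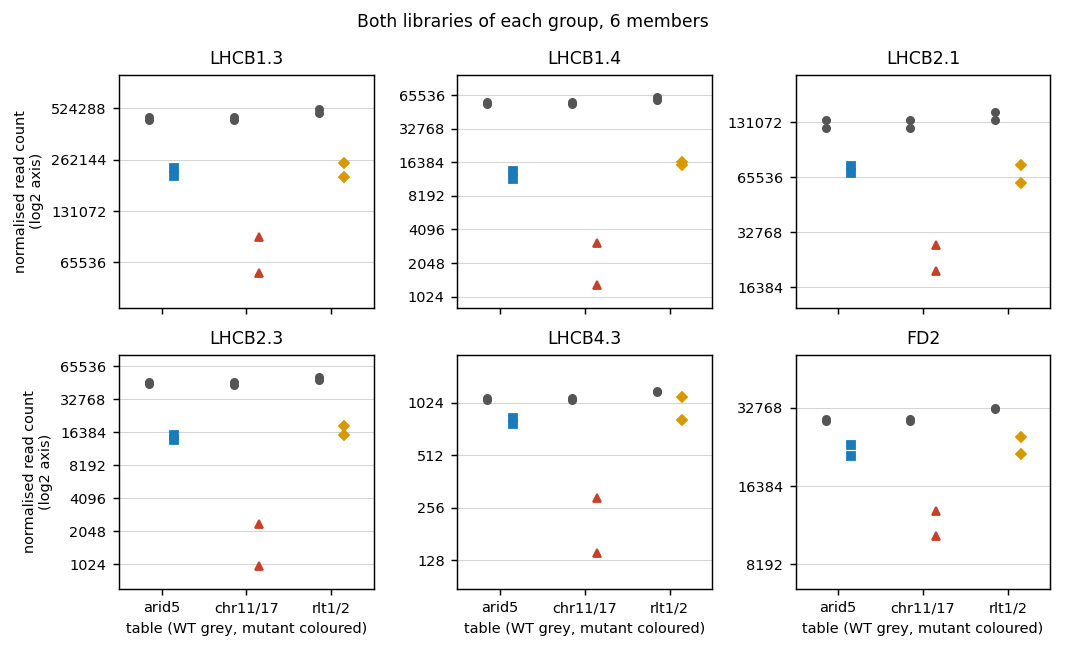
Normalised read counts (y axis, log2 scale) of 6 members in every library, in the tables of arid5, chr11/17 and rlt1/2; grey circles are the WT libraries of that table and coloured symbols the mutant libraries. LHCB1.4 and LHCB2.3 drop to 1294 and 981 in the lower chr11/17 library, while LHCB4.3 in rlt1/2 has a library at 1104, just under WT.

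Copies of the same protein did not all keep their proportions. The log2 ratio of LHCB1.4 to LHCB1.1 was -1.88 and -1.89 in the WT libraries, -3.07 and -2.95 in arid5, -4.48 and -3.76 in chr11/17, and -2.77 and -2.59 in rlt1/2. That of LHCB1.2 to LHCB1.1 was -0.10 and -0.08 in WT, -0.78 and -0.63 in arid5, -1.65 and -1.09 in chr11/17, and -0.52 and -0.50 in rlt1/2. By contrast, the ratio of LHCB1.3 to LHCB1.1 was 1.16 in both WT libraries and between 0.96 and 1.16 in the 6 mutant libraries. The first 2 ratios fell in every mutant library, by more than either pair of replicates differed, while in rlt1/2 the last lay within the WT values.

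Among LHCB2 genes the log2 ratio of LHCB2.3 to LHCB2.1 changed by -0.80 in arid5, -2.45 in chr11/17 and -0.51 in rlt1/2. The ratio of LHCB2.2 to LHCB2.1 changed by -0.25, -1.10 and -0.20. The ratio of LHCB4.3 to LHCB4.1 rose instead, by 0.63, 0.27 and 0.81. Over 15 ratios of related members, both mutant libraries were below both WT libraries in 8, 10 and 9 for arid5, chr11/17 and rlt1/2. They were above them in 2, 3 and 4, and the change passed 0.5 in 4, 5 and 3. With 2 libraries against 2, separation in either direction has an exact permutation p of 0.333, so these counts alone do not show a change. Several ratios share a copy, and some separated changes were small, such as 0.04 for PSBO2 to PSBO1 in rlt1/2. No test was made of the ratios themselves. Coding sequences of LHCB1.1, LHCB1.2 and LHCB1.3 are 95.6% to 96.4% identical in TAIR10.1, and LHCB1.4 is 86.8% to 88.2% identical to them. Of 50-base windows of the annotated transcripts, 10.6% to 20.5% are shared with another member for LHCB1.1 to LHCB1.5, LHCB2.1 and LHCB2.2, and 0 for every other member, LHCB2.3 included. How reads from shared stretches were counted is not given in the sources used here, so the split between those copies is uncertain.

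**Figure D3:**
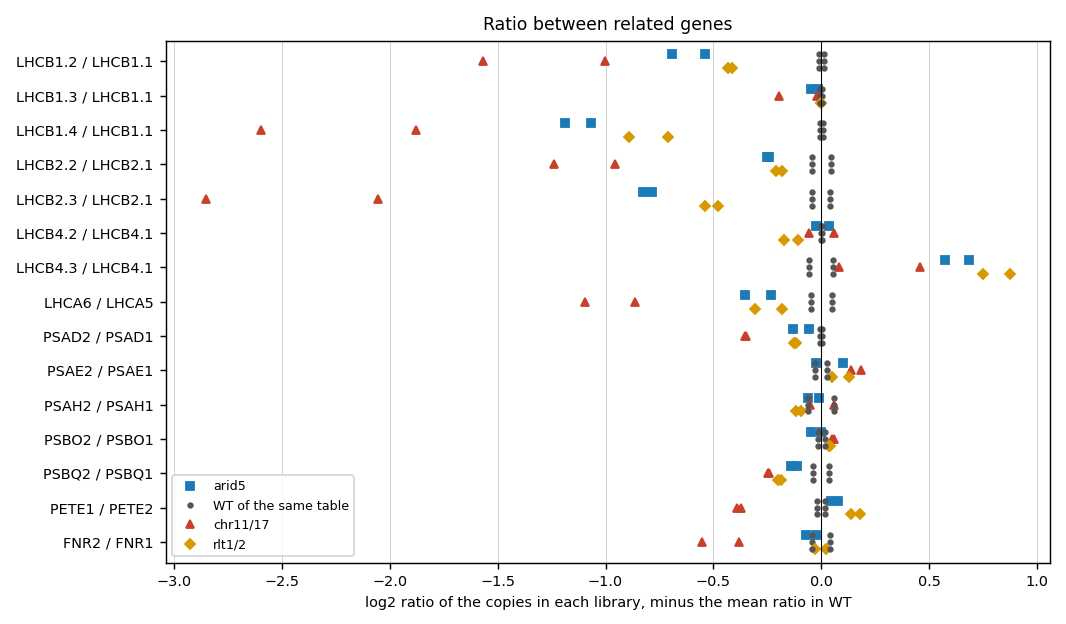
Log2 ratio of related members in each library, minus the mean ratio of the WT libraries of the same table (x axis), for 15 ratios (y axis); grey dots are WT libraries and coloured symbols mutant libraries. The ratios of LHCB1.4 and LHCB2.3 to their copies lie furthest left, reaching changes of -2.24 and -2.45 on average in chr11/17, while LHCB4.3 lies to the right of 0 in all 3 mutants.

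In the antenna of photosystem I, LHCA1 to LHCA4 form the belt around photosystem I, and LHCA5 and LHCA6 are known as linkers between photosystem I and the NDH complex of cyclic electron flow. All 6 genes were lower in each mutant, with medians of -0.95, -2.55 and -1.07. LHCA1 (AT3G54890) had the largest fall of the group in chr11/17, at 19177 and 30314 against 177027 and 169492 in WT (-2.84 ± 0.25, adjusted p = 5.55e-05). In arid5 it read 84759 and 96945 against 177273 and 169735, and in rlt1/2 101126 and 85296 against 196292 and 187369. All mutant libraries were below WT.

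LHCA4 (AT3G47470), the most abundant LHCA gene per length in WT, read 112263 and 123315 in arid5 against 235661 and 220963. In chr11/17 it read 32555 and 46006 against 235333 and 220646, and in rlt1/2 122106 and 105707 against 260944 and 243918. It kept 51.6%, 17.2% and 45.1% of WT. LHCA3 (AT1G61520) read 59890 and 66712 in arid5 against 127329 and 119914 (-0.97 ± 0.10, adjusted p = 9.67e-06), and 68359 and 56193 in rlt1/2 against 140989 and 132372 (-1.14 ± 0.20, adjusted p = 0.000527). In rlt1/2 LHCA3 no longer passed when WT replicate 1 was left out (adjusted p = 0.0656) or after quantile normalization (-0.11, adjusted p = 0.397), in a range of 4.02e-27 to 0.397 over 14 alternatives. Those of LHCA1 and LHCA4 were lost without either WT library, and that of LHCA2 without WT replicate 1.

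LHCA5 (AT1G45474) read 3749 and 3720 in WT and 2206 and 2460 in arid5, 3744 and 3715 in WT and 970 and 1247 in chr11/17, and 4151 and 4107 in WT and 2544 and 2127 in rlt1/2. LHCA6 (AT1G19150) read 4248 and 3934 in WT and 2054 and 2103 in arid5, 4242 and 3928 in WT and 492 and 746 in chr11/17, and 4704 and 4343 in WT and 2451 and 1880 in rlt1/2. LHCA5 changed by -0.68, -1.75 and -0.82, the smallest falls of the group, and LHCA6 by -0.97, -2.73 and -1.07. The log2 ratio of LHCA6 to LHCA5 was 0.18 and 0.08 in WT and -0.97 and -0.73 in chr11/17, a change of -0.98, against -0.29 in arid5 and -0.25 in rlt1/2. LHCA2 kept 52.3%, 17.5% and 47.9% of WT.

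All 12 genes for subunits of photosystem I were lower in each mutant, with medians of -0.90 (range -1.05 to -0.80) in arid5, -2.50 (-2.85 to -2.14) in chr11/17 and -1.04 (-1.19 to -0.93) in rlt1/2. PSAD2 (AT1G03130), a copy of the subunit where ferredoxin docks, read 31917 and 29250 in WT and 13670 and 15988 in arid5 (-1.05 ± 0.08, adjusted p = 1.5e-06). It read 3597 and 4967 in chr11/17 against 31873 and 29208 (-2.85 ± 0.15, adjusted p = 7.47e-06), and 17291 and 13715 in rlt1/2 against 35341 and 32289 (-1.13 ± 0.13, adjusted p = 1.87e-05). PSAD1 (AT4G02770) read 30670 and 34056 in arid5 against 65169 and 60082, 9386 and 13025 in chr11/17 against 65078 and 59995, and 38409 and 30692 in rlt1/2 against 72160 and 66324. The log2 ratio of PSAD2 to PSAD1 changed by -0.09, -0.35 and -0.12, with no overlap of mutant and WT libraries.

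PSAO (AT1G08380), a subunit that takes part in docking of the photosystem II antenna, read 37606 and 42872 in arid5 against 83690 and 80770. In chr11/17 it read 10236 and 15400 against 83573 and 80654, and in rlt1/2 44562 and 35527 against 92668 and 89161. It kept 48.9%, 15.6% and 44.0% of WT, the lowest share of the group in rlt1/2. PSAF (AT1G31330), where plastocyanin docks, read 10464 and 15410 in chr11/17 against 83530 and 81108 (-2.70 ± 0.20, adjusted p = 2.4e-05). PSAK (AT1G30380), on the antenna side, read 29536 and 34124 in arid5 against 61352 and 62232 (-0.96 ± 0.09, adjusted p = 3.72e-06), and 33572 and 29602 in rlt1/2 against 67934 and 68697 (-1.12 ± 0.14, adjusted p = 5.2e-05). 

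PSAE1 (AT4G28750) and PSAE2 (AT2G20260) encode a further subunit of the ferredoxin side. PSAE1 read 7346 and 7620 in arid5 against 13972 and 13031, 2140 and 3475 in chr11/17 against 13953 and 13013, and 7926 and 6568 in rlt1/2 against 15471 and 14385. PSAE2 read 6409 and 7253 in arid5 against 12159 and 11802, 2162 and 3395 in chr11/17 against 12142 and 11785, and 7281 and 6379 in rlt1/2 against 13464 and 13028. No mutant library overlapped WT, and PSAE2 had the smallest fall of the group in chr11/17, at -2.14. PSAH1 (AT3G16140) and PSAH2 (AT1G52230) encode a subunit at the docking site of the mobile antenna. PSAH1 read 7451 and 8984 in arid5 against 14950 and 13678, 1869 and 3049 in chr11/17 against 14929 and 13659, and 9009 and 7596 in rlt1/2 against 16554 and 15100. PSAH2 read 17338 and 20177 in arid5 against 33573 and 33431, 4568 and 6899 in chr11/17 against 33526 and 33383, and 19439 and 16667 in rlt1/2 against 37174 and 36904. The ratio of PSAE2 to PSAE1 moved by 0.16 in chr11/17, and that of PSAH2 to PSAH1 by 0.002 there, -0.04 in arid5 and -0.11 in rlt1/2.

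All 10 genes for subunits of photosystem II were lower in each mutant, with medians of -0.94 (range -1.001 to -0.81), -2.19 (-2.63 to -1.93) and -1.07 (-1.14 to -0.92). PSBO, PSBP and PSBQ proteins shield the water-splitting centre on the lumen side. PSBQ2 (AT4G05180) read 57413 and 54561 in WT and 26923 and 31042 in arid5, 57333 and 54483 in WT and 7315 and 11059 in chr11/17, and 63572 and 60230 in WT and 30235 and 26053 in rlt1/2. It had the largest fall of the group in chr11/17 and rlt1/2 (-2.63 ± 0.19, adjusted p = 2.55e-05, and -1.14 ± 0.14, adjusted p = 3.68e-05). PSBQ1 (AT4G21280) read 29224 and 34385 in arid5 against 56299 and 56270, 8715 and 13219 in chr11/17 against 56221 and 56189, and 34576 and 30108 in rlt1/2 against 62339 and 62115. It changed by -2.39 in chr11/17 and -0.95 in rlt1/2, and the ratio of both copies moved by -0.25 and -0.19 with no overlap.

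PSBO2 (AT3G50820) read 22194 and 24332 in arid5 against 47851 and 45241, the largest fall of the group in that mutant (-1.001 ± 0.08, adjusted p = 1.18e-06). It read 9064 and 12381 in chr11/17 against 47785 and 45176, and 27170 and 21862 in rlt1/2 against 52985 and 49941. PSBO1 (AT5G66570) read 70513 and 74949 in arid5 against 145467 and 140626, 26959 and 36563 in chr11/17 against 145265 and 140424, and 81458 and 65268 in rlt1/2 against 161073 and 155235. The copies moved together, with changes of -0.03, 0.05 and 0.04 in the ratio of PSBO2 to PSBO1. PSBP1 (AT1G06680) read 60065 and 66130 in arid5 against 126101 and 118074, and 19558 and 28480 in chr11/17 against 125925 and 117905.

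PSBR (AT1G79040), which helps to anchor the extrinsic proteins, read 57103 and 64397 in arid5 against 118112 and 115616, 22172 and 29419 in chr11/17 against 117948 and 115450, and 63431 and 55090 in rlt1/2 against 130783 and 127627. It kept 52.0%, 22.1% and 45.9% of WT, and without WT replicate 1 its rlt1/2 call was lost (adjusted p = 0.0538). PSBS (AT1G44575), the sensor of lumen acidity for heat dissipation, kept 52.6%, 26.4% and 51.3% and had the smallest fall of the group in chr11/17 (-1.93 ± 0.15, adjusted p = 2.97e-05). It read 10650 and 13675 there, against 47040 and 45024 in WT. The small subunits PSBW, PSBX and PSBY lay between -0.91 and -0.81 in arid5, between -2.305 and -2.14 in chr11/17, and between -1.07 and -0.92 in rlt1/2.

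All 8 genes of electron transport and the ATP synthase were lower in each mutant, with medians of -0.88, -2.11 and -0.97. FD2 (AT1G60950), the main ferredoxin of leaves, read 29263 and 29642 in WT and 21464 and 23606 in arid5 (-0.39 ± 0.07, adjusted p = 0.000801). In chr11/17 it read 10577 and 13112 against 29222 and 29599 (-1.32 ± 0.13, adjusted p = 9.73e-05), and in rlt1/2 25220 and 21735 against 32403 and 32721 (-0.48 ± 0.12, adjusted p = 0.00623). The mutant libraries stayed below WT in all tables, at 76.5%, 40.3% and 72.1% of its mean. In rlt1/2 the call was lost without WT replicate 1 (adjusted p = 0.145) or 2 (adjusted p = 0.154), in a range of 1.08e-07 to 0.787 over 14 alternatives.

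Plastocyanin is encoded by PETE1 and PETE2. PETE1 (AT1G76100) read 6487 and 6121 in WT and 3230 and 3642 in arid5, 6478 and 6113 in WT and 816 and 1173 in chr11/17, and 7183 and 6758 in WT and 3920 and 3394 in rlt1/2. PETE2 (AT1G20340), the more abundant copy per length, read 42407 and 46721 in arid5 against 86717 and 83934, 14425 and 20982 in chr11/17 against 86596 and 83814, and 48346 and 40678 in rlt1/2 against 96020 and 92654. The ratio of PETE1 to PETE2 rose by 0.06 in arid5 and 0.16 in rlt1/2 and fell by 0.38 in chr11/17, with no overlap of mutant and WT libraries in any of them. PETE1 had the largest fall of the group in chr11/17 (-2.67 ± 0.16, adjusted p = 9.74e-06) and PETE2 in rlt1/2 (-1.09 ± 0.17, adjusted p = 0.000218).

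FNR1 and FNR2 encode ferredoxin-NADP reductase. In chr11/17 FNR1 (AT5G66190) read 6271 and 7836 against 24883 and 23451, and FNR2 (AT1G20020) 2432 and 3422 against 13761 and 13743. In arid5 FNR1 read 14101 and 14502 against 24917 and 23485, and FNR2 7630 and 8119 against 13780 and 13762. In rlt1/2 FNR1 read 16366 and 13321 against 27590 and 25925, and FNR2 9141 and 7690 against 15259 and 15192. The chr11/17 changes of -1.78 ± 0.13 and -2.25 ± 0.15 moved the ratio of FNR2 to FNR1 by -0.47, whereas in arid5 and rlt1/2 mutant and WT ratios overlapped. PETC (AT4G03280), the Rieske protein of the cytochrome complex, read 16294 and 17360 in arid5 against 31495 and 30777, 6786 and 8986 in chr11/17 against 31451 and 30733, and 17971 and 15457 in rlt1/2 against 34874 and 33975. ATPD (AT4G09650) read 13757 and 15175 in arid5 against 28197 and 27394, 5118 and 7678 in chr11/17 against 28158 and 27354, and 16249 and 14054 in rlt1/2 against 31222 and 30240. ATPD and ATPC1 (AT4G04640), for the delta and gamma subunits of the ATP synthase, changed by -0.94 and -0.88 in arid5, by -2.14 and -2.08 in chr11/17 and by -1.02 and -1.004 in rlt1/2.

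The share of the library that these transcripts take was lower in each mutant as well. The 49 genes held 15.3% and 14.9% of all recovered reads in the WT libraries. They held 8.69% and 9.56% in arid5, 2.36% and 3.54% in chr11/17, and 9.01% and 7.80% in rlt1/2. Each mutant library was below both WT libraries, and both chr11/17 libraries were below those of the other mutants. In bulk seedlings, fewer green cells and less of these transcripts per cell cannot be told apart.

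Of the 50 genes with the most reads, 28 were members in each WT library, 22 in each arid5 library, 2 and 7 in chr11/17, and 23 and 22 in rlt1/2. Composition within the members shifted away from the antenna of photosystem II. That group took 47.1% and 46.9% of the members' reads in WT, 44.0% and 44.3% in arid5, 39.3% and 41.5% in chr11/17, and 44.8% and 44.3% in rlt1/2. Photosystem II subunits took 17.8% and 18.0% in WT and 22.8% and 21.4% in chr11/17, and electron transport genes 6.09% and 6.19% in WT and 9.24% and 8.51% in chr11/17. In arid5 and rlt1/2 those groups took 18.6% to 18.8% and 6.79% to 7.05%, and each mutant library lay outside the WT pair.

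**Figure D4:**
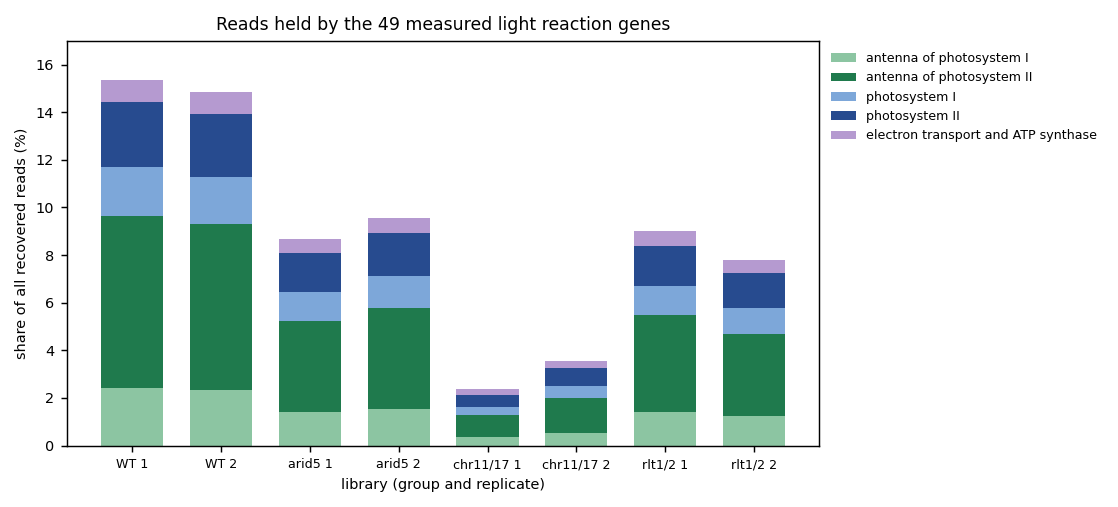
Share of all recovered reads (y axis, %) held by the 49 measured genes in each of the 8 libraries (x axis), stacked by functional group. The stacks reach 15.3% and 14.9% in WT, 8.69% and 9.56% in arid5, 2.36% and 3.54% in chr11/17, and 9.01% and 7.80% in rlt1/2.

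Replicates differed in the same direction for nearly all members. The second chr11/17 library was above the first for 49 of 49, by a median of 0.56 on the log2 scale, and the first rlt1/2 library above the second for 49 of 49, by a median of 0.26. The second arid5 library was above the first for 48 of 49 (median 0.15), and the first WT library above the second for 46 of 49 (median 0.06). The members within a library are not independent of each other, and n remains 2 per group. In rlt1/2, 16 of 49 members lost their call without WT replicate 1, namely LHCA1 to LHCA4, LHCB1.1, LHCB1.3, LHCB2.1, LHCB3, LHCB4.1, LHCB5, LHCB6, PSAL, PSBO1, PSBP1, PSBR and FD2. Without WT replicate 2 the call was lost for 12 of these, all but LHCA2, LHCA3, PSAL and PSBR. Their changes stayed negative, and the median of all members lay between -1.21 and -0.93 when a library was left out. Without a WT library, a gene's own spread came from the rlt1/2 pair alone, so these losses do not measure the change itself.

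For differences between the mutants, edgeR was run once over the recovered reads of the 8 libraries. Against arid5, chr11/17 was lower for 49 of 49 members, by a median of -1.502 (range -3.10 to -0.90), where 33% of 21288 genes were called lower and 32.2% higher. Against rlt1/2 it was lower for 49 of 49, by a median of -1.33 (-3.16 to -0.81), where 32.6% were called lower and 32.2% higher. LHCB2.3 differed most in both (-3.10 ± 0.31, adjusted p = 8.9e-06, and -3.16 ± 0.31, adjusted p = 8.65e-06) and FD2 least (-0.90 ± 0.12 and -0.81 ± 0.12). The 5 groups had medians of -1.15 (electron transport) to -1.56 (both antennae) against arid5.

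Between rlt1/2 and arid5, 0 of 49 members were called in either direction by edgeR, 0 had an unadjusted p under 0.05 and 0 were called by DESeq2. Over all genes, 0.0423% were called lower and 0.324% higher. The median difference, rlt1/2 minus arid5, was -0.14 (range -0.24 to 0.19), and 45 of 49 were below 0. Leaving out 1 library moved the median to between -0.27 (without rlt1/2 replicate 1) and -0.0087 (without rlt1/2 replicate 2). The 95% intervals of single members reached from -0.64 to 0.81 at their widest and stayed within 0.5 of 0 for 16 members, so differences of up to about that size were not excluded for the others. LHCB1.4 differed by 0.19 ± 0.28 and LHCB2.2 by -0.18 ± 0.21.

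Of 32 further genes for nuclear-encoded subunits, cyclic electron flow and NDH, state transitions and quenching, 29 were tested and 29 were lower in each mutant, with medians of -0.78, -2.09 and -0.92. Among all genes tested, 24.6%, 36% and 24% were called lower in arid5, chr11/17 and rlt1/2. VDE1, the violaxanthin de-epoxidase of the xanthophyll cycle, read 2086 and 2087 in WT and 722 and 765 in arid5 (-1.48 ± 0.06, adjusted p = 3.85e-08). It read 188 and 253 in chr11/17 against 2083 and 2084 (-3.20 ± 0.13, adjusted p = 2.87e-06), and 837 and 636 in rlt1/2 against 2310 and 2303 (-1.65 ± 0.11, adjusted p = 3.15e-07). VDE1 had the largest fall of this list in all 3. PSB27, an assembly factor of photosystem II, changed by -1.21 in arid5 and -1.30 in rlt1/2, PNSL2, an NDH subcomplex protein, by -1.14 and -1.19, and in chr11/17 NDHN changed by -2.31 and TAP38, the phosphatase of state transitions, by -1.92.

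Of 18 tested genes that insert the antenna and assemble the photosystems, 18, 17 and 18 were lower, where 24.6%, 36% and 24% of all genes were. Their medians were -0.68, -1.496 and -0.76. CPSRP43, which carries antenna proteins through the stroma, read 13633 and 13973 in WT and 7011 and 7565 in arid5. It read 2664 and 3418 in chr11/17 against 13614 and 13953, and 7866 and 6251 in rlt1/2 against 15096 and 15424, with changes of -0.92, -2.19 and -1.12. The gene not called was APO1 in chr11/17, at 654 and 578 against 711 and 612 (-0.10 ± 0.11, adjusted p = 0.429).

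Of 8 tested relatives of the antenna proteins that are known from stress and greening, 7 were lower and 0 higher in arid5 and in rlt1/2. Of all genes, 24.6% and 24% were lower in these mutants, and 23.3% and 23.8% higher. In chr11/17, 5 were lower and 2 higher, where 36% and 35.9% of all genes were. ELIP1, an early light-induced protein, read 302 and 358 in WT and 1062 and 867 in chr11/17, a rise of 1.52 ± 0.13 (adjusted p = 4.8e-05). ELIP2 read 108 and 199 in WT and 248 and 335 in chr11/17 (0.92 ± 0.28, adjusted p = 0.0203), and leaving out the first WT library ended that call (0.51, adjusted p = 0.0718, in a range of 0.00105 to 0.0718 over 14 alternatives). In arid5 ELIP1 was not called, at 310 and 324 against 303 and 358, and ELIP2 was lower, at 66 and 64 against 108 and 199 (-1.07 ± 0.24, adjusted p = 0.00292). OHP1, OHP2 and LIL4, further members of the family, were lower in all 3 mutants. Plastid-encoded partners of these proteins were not analysed here.

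Marker genes of other cell types moved in the same libraries, and their part in the result was not tested. Of 12 root markers, 8 were higher and 1 lower in arid5, 5 higher and 3 lower in chr11/17, and 9 higher and 1 lower in rlt1/2. Over all genes 23.3%, 35.9% and 23.8% were higher and 24.6%, 36% and 24% lower, so the chr11/17 counts lay near those of all genes. The median change of the root markers was 0.46, 0.23 and 0.58. Their summed level was 2751 and 2854 in WT and 3514 and 3463 in arid5, 2747 and 2850 in WT and 2517 and 2696 in chr11/17, and 3047 and 3149 in WT and 4453 and 4704 in rlt1/2. This sum was above WT in arid5 and rlt1/2 and below WT in chr11/17, where it and the median had opposite signs. SCR, of the endodermis, was called lower in each mutant (-0.35, -0.61 and -0.23), but equal library totals ended its arid5 call (adjusted p = 0.274) and turned its rlt1/2 value to 0.05 (adjusted p = 0.614). Its rlt1/2 call was also lost when WT replicate 1 (adjusted p = 0.265), WT replicate 2 (0.0800) or rlt1/2 replicate 2 (0.0677) was left out. NRT2.1, a nitrate transporter, and PIN2, an auxin carrier, were called lower in chr11/17, at 61 and 63 against 120 and 114, and at 184 and 277 against 351 and 479. In arid5 and rlt1/2 NRT2.1 was called higher instead. LRX1, a root hair gene, rose by 1.09 in arid5, 0.55 in chr11/17 and 1.69 in rlt1/2.

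Of 6 shoot epidermis and guard cell markers, 2, 5 and 3 were lower and 0 higher. Among all genes tested 24.6%, 36% and 24% were called lower and 23.3%, 35.9% and 23.8% higher. The arid5 count of 2 of 6 lay near the share called lower. The summed level of these 6 markers was 14873 and 13849 in WT against 11867 and 13110 in arid5, 14853 and 13829 against 9495 and 9765 in chr11/17, and 16466 and 15290 against 13826 and 12781 in rlt1/2. Of 5 vascular markers, 3, 4 and 3 were lower and 0 higher, with sums of 7916 and 7544 in WT against 5065 and 5464 in arid5, 7905 and 7534 against 3118 and 3687 in chr11/17, and 8765 and 8329 against 5299 and 5255 in rlt1/2. SUC2, the phloem sucrose carrier, changed by -0.93, -2.23 and -1.21. Of 5 seed markers 1, 3 and 2 passed the filter, all higher. Summed levels were 12 and 6 in WT against 32 and 30 in arid5, 12 and 10 against 403 and 177 in chr11/17, and 13 and 9 against 56 and 57 in rlt1/2. With WT so near the filter of 10 in 2 libraries, markers passed it mostly through the mutant libraries. Their direction was thus largely set by the filter. OLEO1 and SESA1 were at 0 in the first WT library of the chr11/17 table.

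**Figure D5:**
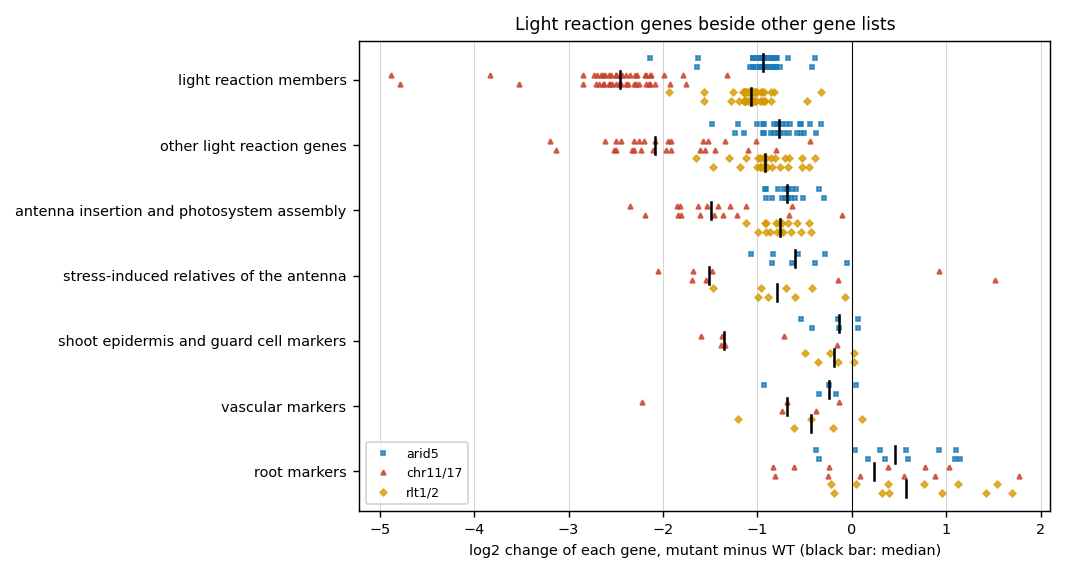
Log2 change against WT (x axis) of every tested gene of the members and of 6 other lists (y axis), for arid5 (squares), chr11/17 (triangles) and rlt1/2 (diamonds), with a black bar at each median. The members have the lowest median of these lists in each mutant as deposited, at -0.94, -2.46 and -1.07, and the root markers spread to both sides of 0.

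Levels per length show where the members stand in WT. Normalised count per 1000 exonic bases was highest for LHCB1.3, at 371141, followed by LHCA4 at 176303, LHCB1.2 at 157362, LHCB5 at 155682 and LHCB1.1 at 155516. The WT libraries of LHCB1.2, LHCB5 and LHCB1.1 overlapped (155822 to 158903, 151201 to 160163 and 152780 to 158251), so their order is not resolved. The lowest were LHCB4.3 at 746, LHCA5 at 3487 and LHCA6 at 3521, of which the libraries of the last pair overlapped. Group medians of this level were 93511 for the antenna of photosystem II, 77118 for the antenna of photosystem I, 57404 for photosystem II, 51474 for photosystem I and 23089 for electron transport and the ATP synthase.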

How the data were processed

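Messenger RNA was sequenced from 8 libraries, 2 per genotype, and the groups were taken from the labels. Reads were processed with HISAT2, edgeR and TAIR10, per the submitters' processing notes. Software versions, counter, annotation and strand use: not given in the sources used here. Each of the 3 deposited tables holds WT and 1 mutant as a normalised signal, which was not stated to be raw counts: its values are edgeR-type read counts adjusted by the authors to a common library size. Because the values were not raw counts, limma was used for them rather than a count test. Whole reads were recovered for 100% of values in every library (tolerance 1e-05), and WT reads were the same in the 3 tables. On those reads edgeR called 9825, 14984 and 9873 genes in arid5, chr11/17 and rlt1/2, against 9846, 14992 and 9926 by limma. DESeq2 called 7118, 13024 and 7615, and edgeR over all 8 libraries 8736, 15354 and 9716. The shares of all genes called lower or higher thus depend on the tool.

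Values were taken as log2(value + 10), genes with at least 10 in at least 2 libraries were kept, and limma 3.58.1 with a mean-variance trend and Benjamini-Hochberg adjustment over all genes of the table was used at 0.05 (R 4.3.3). For genes with low values this scale makes a fold change smaller than it is. Mutants were compared with each other by edgeR 4.0.16 (quasi-likelihood, TMM) on the recovered reads of all 8 libraries; DESeq2 1.42.0 was an alternative. Adjusted p-values in the text are limma's, and edgeR's between mutants. Intervals are 95% and cover the spread between libraries as fitted. Other alternatives were the pseudocount, the filter, the scaling, the replicate block and leaving out each library. In comparisons with WT, leaving out a library leaves its group without a replicate, and a gene's own spread comes from the other group alone. Calls kept or lost in those fits therefore do not measure how firm a change is. Each replicate was counted as a library of its own. Replicates differed by more than sampling noise, but that does not show that they are separate cultures.

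The members and lists were chosen with earlier results of these data known. Any member could be named; values in every library were given for the 3 largest falls per group and mutant and for copies, and of other lists up to 3 called genes with the smallest adjusted p, and those called against their list's median, were named. Names, coordinates and sequences are from the RefSeq TAIR10.1 assembly; the tables hold no coordinates. The limma fit was also run on simulated counts with known changes, drawn with the same dispersion for every gene and group. The replicates here differed unequally between groups and moved together across members, so that run does not show how the calls hold here.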

Additional observations from a re-analysis of the deposited data

How the results depend on the processing

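With libraries scaled to equal totals, 2677 genes were called lower and 9761 higher in arid5, and 2691 and 9696 in rlt1/2. Median log2 changes of all members, both antennae (photosystem I, then II), photosystem I, photosystem II and electron transport were then -0.68, -0.68, -0.78, -0.64, -0.67 and -0.62 in arid5, and -0.79, -0.79, -0.87, -0.76, -0.80 and -0.69 in rlt1/2. XCP1 turned to 0.022 in arid5, RLT2 to 0.062 in chr11/17, and SCR and FDH to 0.048 and 0.041 in rlt1/2. With totals over the genes that are not members, the calls were 3336 and 7605 in arid5 and the medians -0.78, -0.78, -0.88, -0.73, -0.77 and -0.71; in rlt1/2, 7621 genes were higher and the electron transport median was -0.80. Quantile normalization gave medians, in the same order, of -0.34, -0.067, -0.092, -0.44, -0.33 and -0.36 in arid5, where 1 member was called higher, and of -0.44, -0.12, -0.091, -0.54, -0.40 and -0.55 in rlt1/2, where 32 members were called lower. In chr11/17 it gave -2.01 for all members, -1.91 and -1.98 for the antennae and -1.84 for photosystem II. In arid5 and rlt1/2 both antennae thus had the smallest median falls of the groups, unlike in the deposited values. Under quantile normalization LHCA1, LHCB2.1, LHCB3, LHCB6, PSBO1 and FD2 turned to 0.087, 0.24, 0.087, 0.076, 0.096 and 0.072 in arid5. LHCA1, LHCB3, PSBO1 and FD2 turned to 0.11, 0.037, 0.069 and 0.030 in rlt1/2. The member called higher in arid5 was LHCB2.1.

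Between rlt1/2 and arid5, DESeq2 called 23 genes lower and 152 higher, and leaving out a library gave 1 to 8 lower and 18 to 58 higher. When a library was left out, the members' median lay between -1.01 and -0.86 in arid5 and between -2.75 and -2.19 in chr11/17. In rlt1/2 it lay between -1.21 and -0.93. Calls kept or lost in those fits do not measure robustness, since the group concerned then has no replicate. RLT1 turned to -0.040 in rlt1/2 without rlt1/2 replicate 1. Same-numbered libraries of different groups had correlations of their deviations between -0.13 and 0.16, so the numbers were not taken to pair them. With the replicate block, 5083 genes were lower and 4832 higher in arid5, 7446 and 7387 in chr11/17, and 5684 and 5680 in rlt1/2, and 49 of 49 members stayed lower in each. A crossed replicate block between rlt1/2 and arid5, added after seeing the data, gave 15 lower and 119 higher, with 0 members called. Apart from the scalings, the cause of these shifts was not tested. With 2 libraries per group, small differences between the mutants were not detectable.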
